A study of Mus musculus with 8 samples.

Results

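Tryptophan breakdown and its receptor were followed through 8 genes, taken by name from the deposited tables of 34745 genes: Ido1, Afmid, Kmo, Kynu, Tph1, Ahr, Ahrr and Tiparp. The libraries came from intestinal crypts of wild-type C57BL/6 mice on day 5. In 4 libraries the mice had received dextran sulfate sodium (DSS), which damages the epithelium, together with CA, cholic acid in the series title (the DSS+CA group), and in the other 4 libraries DSS alone (the DSS group). All libraries therefore carry the DSS injury, and none is from uninjured mice; the labels give no gut segment, no dose or route and no statement that the replicates are separate animals, so p-values here reflect sample-to-sample spread alone, possibly technical. The genes were picked with results of this same contrast known. Their differences between the groups are therefore a description, and the adjusted p-values printed with them come from the fit over all genes.

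Tryptophan is an essential amino acid with several fates in the gut. Indoleamine 2,3-dioxygenase, the product of Ido1 and a textbook interferon gamma target, opens its indole ring and starts the kynurenine pathway, which can run on to NAD. Enterochromaffin cells turn another share into serotonin. Kynurenine and bacterial indoles can bind the aryl hydrocarbon receptor (AHR), a ligand-activated transcription factor of the intestinal barrier, which pairs with ARNT and switches on detoxification genes as well as its own brakes.

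Total counts lay between 13334012 and 17973196 per library. Levels are given as CPM, counts scaled to a common library total with the TMM factors of edgeR, for comparing libraries, and as deposited FPKM, which also divides by gene length, for comparing genes. Epithelial markers were abundant, with the brush border gene Vil1 at 2228 ± 442 CPM in DSS+CA and 2217 ± 498 CPM in DSS (SD, n = 4 each). Small-intestinal genes were high, such as Sis, which encodes sucrase-isomaltase, with 3636 ± 2686 CPM in DSS+CA and 3766 ± 2178 CPM in DSS (SD, n = 4 each), and the colon gene Car1 had no count in any library. The libraries DSS+CA 3, DSS 2 and DSS 3, thus 1 of DSS+CA and 2 of DSS, stood apart with a mean counted gene length of 1445, 1423 and 1448 bases, against 1719 to 2412 bases in the other 5. The calls of members and named pathway genes that changed without these 3 libraries are given beside each gene. Among all tested genes, edgeR without these 3 libraries called 234 higher and 421 lower in DSS+CA, against 4 and 9 with all 8 libraries. A call in that fit is thus far more common. Mitochondrial genes took 9.72, 14.1, 20.5 and 13.2% of the counts in DSS+CA 1 to 4, against 16.2, 27.7, 17.8 and 19.8% in DSS 1 to 4, so their share was mostly lower in DSS+CA, with DSS+CA 3 inside the DSS range.

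Ido1 and Kmo were the members whose groups did not overlap, and they lay in opposite directions. Ido1, the entry enzyme, averaged 7.39 ± 6.43 CPM in DSS+CA and 56.2 ± 30.5 CPM in DSS, and Kmo, the hydroxylase that acts on kynurenine, averaged 4.82 ± 2.11 CPM in DSS+CA and 1.37 ± 0.752 CPM in DSS (SD, n = 4 each). Neither passed the threshold of an edgeR adjusted p of 0.05. Of the 8 members, 4 passed the expression filter of at least 1 FPKM in at least 4 libraries (Ido1, Afmid, Ahr and Tiparp), and 0 of these 4 were called by edgeR. The same test called 13 of all 9913 tested genes (0.131%), and at an unadjusted p under 0.05 it gave 1 of the 4 members against 7.82% of tested genes. DESeq2 called 1 of the 4 members, Ido1, against 2.22% of tested genes. Without a filter, edgeR called 1 of the 8, again Ido1, against 0.406% of 19457 genes, and 3 of the 8 (Ido1, Kmo and Ahrr) had an unadjusted p under 0.05, against 9.11%. Groups without overlap were found in 6.05% of the filtered genes and in 5.67% of the genes without a filter. Since the members were chosen on this contrast, nothing is read from these shares.

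**Figure D1:**
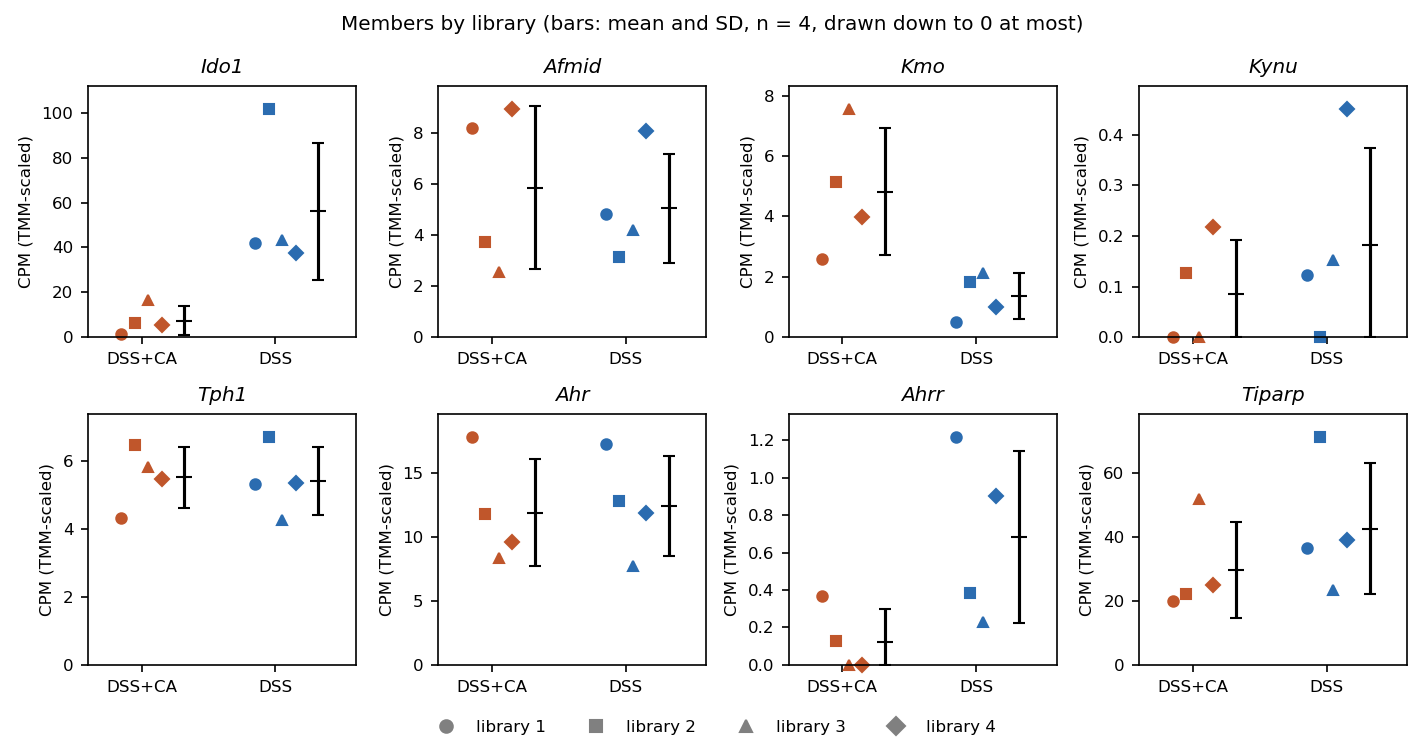
TMM-scaled CPM of each of the 8 genes (y axis, linear from 0) in the 4 DSS+CA and the 4 DSS libraries, 1 point a library with a symbol for its number, and the group mean and SD beside them (bars end at 0 where they would pass it). All 4 DSS+CA points lie below all DSS points for Ido1 and above them for Kmo, and the groups overlap in the other 6 panels.

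Ido1 (ENSMUSG00000031551) is a protein-coding gene on the minus strand of chromosome 8, from 24584136 to 24597009 (GRCm38), and its counts are summed over the whole gene. It had 29, 97, 162 and 98 counts in DSS+CA 1 to 4, against 692, 1334, 569 and 665 counts in DSS 1 to 4. Scaled, that was 1.53, 6.14, 16.6 and 5.34 CPM in DSS+CA 1 to 4, against 42.2, 102, 43.3 and 37.5 CPM in DSS 1 to 4. The highest DSS+CA library, number 3, thus stayed below the lowest DSS library, number 4. Spread within a group was wide: the highest library was 10.8 times the lowest in DSS+CA and 2.71 times in DSS, where library 2 stood well above the other 3. These highest libraries, DSS+CA 3 and DSS 2, also had the highest mitochondrial share of their group. Their mean counted gene length was the shortest of their group (1445 and 1423 bases). The part of that share or that length in the Ido1 level was not tested.

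The fitted level of Ido1 was 7.68-fold lower in DSS+CA (log2 fold change -2.94, SE 0.632, edgeR adjusted p = 0.099, lower in 4 of 4 libraries). Groups without overlap and with DSS+CA lower were found in 2.81% of tested genes. The adjusted p depended on the processing, passing 0.05 in 6 of 16 alternatives and ranging from 0.000118 with DESeq2 to 0.331 without DSS+CA 2, while the log2 fold change stayed between -3.70 and -2.49. Without DSS+CA 3 alone it was -3.70 (adjusted p = 0.0319), and without DSS 2, DSS 3 and DSS+CA 3 together -3.24 (adjusted p = 0.0165). No run of 31 bases in the Ido1 transcripts of GENCODE M21 was shared with its relatives Ido2 or Tdo2, so reads could be told apart, and Ido2 had no count in any library.

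Below Ido1, the next steps of the pathway did not share its pattern. Afmid, the formamidase that frees kynurenine (chromosome 11, 117825924 to 117839908, plus strand), had 8.19, 3.73, 2.56 and 8.94 CPM in DSS+CA 1 to 4, against 4.82, 3.13, 4.18 and 8.06 CPM in DSS 1 to 4. The groups overlapped throughout, with libraries on each side among the lowest and the highest (log2 fold change 0.22, SE 0.462, edgeR adjusted p = 0.997). Afmid shares 1566 exonic bases on the same strand with the annotated gene Gm20708 and 83 exonic bases on the opposite strand with the thymidine kinase gene Tk1. Its counts are therefore uncertain, since no source used here gives the strand setting or the rule for shared reads.

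Kmo (ENSMUSG00000039783) turns kynurenine into 3-hydroxykynurenine and lies on the plus strand of chromosome 1, from 175620381 to 175662116. It had 49, 81, 74 and 73 counts in DSS+CA 1 to 4, against 8, 24, 28 and 18 counts in DSS 1 to 4. As CPM these were 2.59, 5.13, 7.57 and 3.98 in DSS+CA 1 to 4, against 0.488, 1.83, 2.13 and 1.01 in DSS 1 to 4. The lowest DSS+CA library, number 1, still lay above the highest DSS library, number 3, and in each group library 3 was the highest and library 1 the lowest.

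With at most 0.806 FPKM in any library Kmo stayed below the expression filter, so its difference comes from the fit without one. There the level was 3.66-fold higher in DSS+CA (log2 fold change 1.87, SE 0.522, edgeR adjusted p = 0.128, higher in 4 of 4 libraries), against 2.01% of unfiltered genes with DSS+CA above DSS in all libraries. Over 14 alternatives the log2 fold change ran from 1.58 to 2.48, and 4 of them passed, among them DESeq2 (adjusted p = 0.0329) and the fit without DSS 2, DSS 3 and DSS+CA 3 (log2 fold change 2.42, adjusted p = 0.00265), with adjusted p up to 0.372 in the others. The locus overlaps that of the fumarate hydratase gene Fh1 on the opposite strand, with 0 exonic bases in common.

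Kynu, the kynureninase that makes anthranilic and 3-hydroxyanthranilic acid (chromosome 2, 43555329 to 43682715, plus strand), was close to the limit of detection. It had 0, 2, 0 and 4 counts in DSS+CA 1 to 4, against 2, 0, 2 and 8 counts in DSS 1 to 4. A count of 0 leaves room for up to 3 counts in a library, by counting error only. A difference between the groups was therefore not detectable at this depth (log2 fold change -0.90, SE 1.29, edgeR adjusted p = 0.840 without a filter), and without DSS 4 it was -0.00689.

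**Figure D2:**
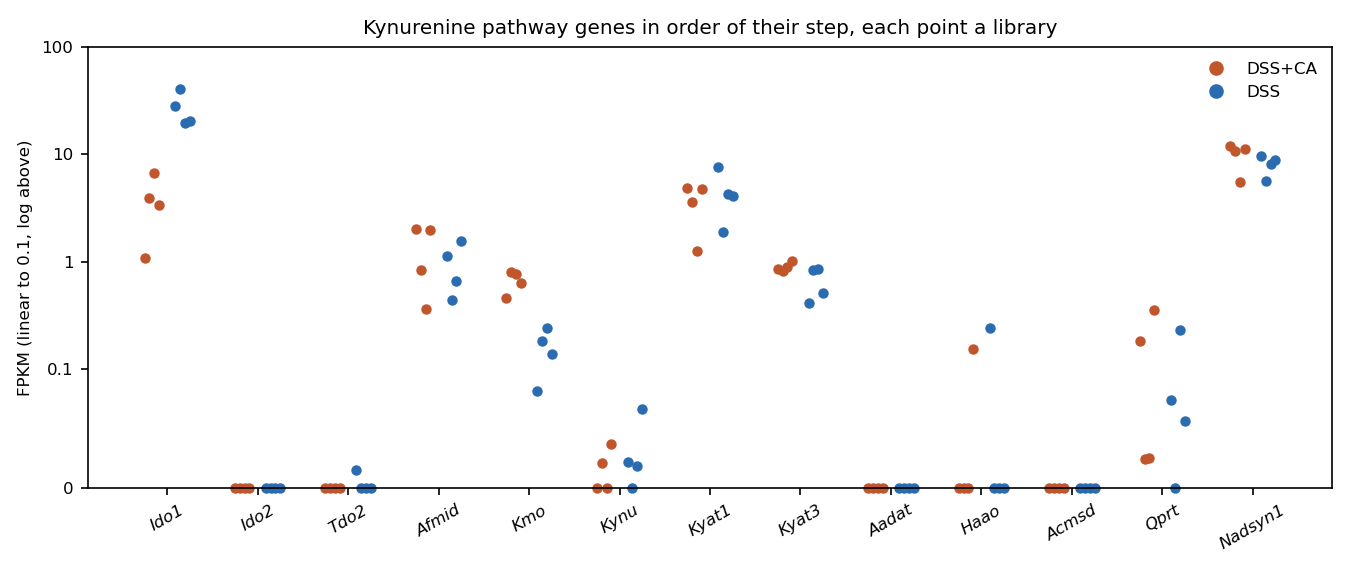
Deposited FPKM (y axis, linear from 0 to 0.1 and logarithmic above) of the 13 listed kynurenine pathway genes in the order of their steps, 1 point a library, DSS+CA left of DSS for each gene. Ido1 and Nadsyn1 reach the highest levels in DSS, Ido2, Aadat and Acmsd sit at 0 in every library, and Kynu, Haao and Qprt stay under 0.4.

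Along the rest of the pathway the libraries held little RNA of Kynu, Haao and Qprt. The aminotransferase genes Kyat1 and Kyat3 had more, with means of 17.7 and 9.79 CPM in DSS+CA and 25.2 and 8.50 CPM in DSS. Of the 13 listed enzymes, 4 were tested (Ido1, Kyat1, Afmid and Nadsyn1), 0 were called by edgeR and 1 by DESeq2, 1 had an unadjusted p under 0.05, and the median log2 fold change was -0.23, against 0.02 over all tested genes. For this and the later lists, the shares over all tested genes were 0.131% called by edgeR, 2.22% by DESeq2 and 7.82% at an unadjusted p under 0.05. Nadsyn1, which completes NAD from the deamido form, was the steadiest at 45.8 ± 5.19 CPM in DSS+CA and 44.0 ± 5.04 CPM in DSS (SD, n = 4 each; log2 fold change 0.06, SE 0.248). The aminotransferase gene Kyat1, listed under its older symbol Ccbl1, had a log2 fold change of -0.51 (SE 0.364, edgeR adjusted p = 0.886).

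Haao, the dioxygenase after Kynu, had 3 counts over the DSS+CA libraries and 4 over the DSS libraries, and Qprt, which forms the NAD precursor nicotinate mononucleotide, 27 and 17 counts in the same order of groups. The liver enzyme gene Tdo2 had 0 counts in DSS+CA and 1 in DSS. Ido2, Aadat and Acmsd had no count in either group, which allows up to 3 counts in a library.

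In the serotonin branch no gene passed the test. Tph1, the rate-limiting hydroxylase of serotonin synthesis outside the brain (chromosome 7, 46647130 to 46672537, minus strand), had 4.33, 6.45, 5.83 and 5.45 CPM in DSS+CA 1 to 4, against 5.31, 6.71, 4.26 and 5.36 CPM in DSS 1 to 4. It varied least of the 8 genes, the highest library being 1.49 times the lowest in DSS+CA and 1.58 times in DSS. It missed the expression filter, and without one the log2 fold change was 0.10 (SE 0.371, edgeR adjusted p = 0.959), with a 95% interval of -0.63 to 0.82 that leaves room for differences of either sign.

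The other serotonin genes lay close to Tph1 in this. Of 10 listed, 5 were tested, 0 were called by edgeR or DESeq2, 0 had an unadjusted p under 0.05, and the median log2 fold change was 0.10. Ddc, the decarboxylase that completes serotonin, averaged 168 ± 25.1 CPM in DSS+CA and 157 ± 23.5 CPM in DSS, and the serotonin transporter gene Slc6a4 80.4 ± 14.5 CPM in DSS+CA and 67.1 ± 8.55 CPM in DSS (SD, n = 4 each). The vesicular transporter gene Slc18a1 had a log2 fold change of 0.54 (SE 0.341, edgeR adjusted p = 0.839).

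Markers of the cells that make serotonin were present in both groups. The 7 enterochromaffin markers summed to 163 to 177 CPM in DSS+CA libraries and 168 to 287 CPM in DSS libraries, with none at 0 in all libraries. The granin gene Chga averaged 38.8 ± 4.75 CPM in DSS+CA and 48.2 ± 6.76 CPM in DSS (SD, n = 4 each; edgeR adjusted p = 0.915). Mast cells can also hold Tph1; their 9 markers summed to 12.0 to 18.0 CPM in DSS+CA and 15.0 to 34.1 CPM in DSS, and the mast cell genes Tpsab1 and Cma1 were at 0. The part of either cell type in the Tph1 level was not tested.

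The receptor gene overlapped between the groups, as did both of its feedback genes, which varied widely. Ahr (chromosome 12, 35497974 to 35535038, minus strand) had 17.9, 11.8, 8.38 and 9.59 CPM in DSS+CA 1 to 4, against 17.3, 12.8, 7.76 and 11.8 CPM in DSS 1 to 4. Library 1 was the highest and library 3 the lowest in each group, and the groups covered almost the same range (log2 fold change -0.06, SE 0.348, 95% interval -0.74 to 0.63, edgeR adjusted p = 0.999). The sign turned in 4 of 16 alternatives.

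The partners of the receptor did not pass the test either. Of 7 listed complex genes 6 were tested, 0 were called by edgeR or DESeq2, 0 had an unadjusted p under 0.05, and the median log2 fold change was -0.04. Arnt, the dimer partner, averaged 19.2 ± 3.32 CPM in DSS+CA and 19.4 ± 6.62 CPM in DSS (SD, n = 4 each). Among the chaperones of the silent receptor, the log2 fold change was 0.45 (SE 0.301) for Ptges3 and -0.63 (SE 0.472) for Hsp90aa1. The other partner gene, Arnt2, below the filter and named after its values were seen, had 10.04, 2.97, 1.64 and 6.76 CPM in DSS+CA 1 to 4, against 2.81, 0.610, 1.07 and 1.64 CPM in DSS 1 to 4 (log2 fold change 1.88, SE 0.573, edgeR adjusted p = 0.182 without a filter). It passed without DSS+CA 3 (adjusted p = 0.0182) and without DSS 2, DSS 3 and DSS+CA 3 (adjusted p = 0.0213), within a range of 0.00855 to 0.567 over 14 alternatives.

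Ahrr and Tiparp are the receptor's own brakes: the AHR repressor competes for ARNT, and TIPARP is an ADP-ribosyltransferase that marks the receptor for destruction. Both are switched on by the receptor through copies of the core letters GCGTG, and Cyp1a1, a monooxygenase, is widely used as its reporter gene. Their promoter windows, 250 bases before to 50 after the RefSeq start on GRCm38.p6, are shown for that core, with each match on either strand in capitals; each is read 5′ to 3′ on the gene's own strand.
Ahrr, chr13:74292282-74292581, minus strand: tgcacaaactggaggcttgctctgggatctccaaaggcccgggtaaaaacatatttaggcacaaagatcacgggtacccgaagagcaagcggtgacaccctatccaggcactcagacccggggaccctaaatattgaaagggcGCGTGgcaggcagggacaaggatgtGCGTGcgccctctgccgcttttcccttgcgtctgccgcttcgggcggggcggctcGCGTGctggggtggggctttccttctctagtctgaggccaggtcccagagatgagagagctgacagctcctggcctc
Tiparp, chr3:65528197-65528496, plus strand: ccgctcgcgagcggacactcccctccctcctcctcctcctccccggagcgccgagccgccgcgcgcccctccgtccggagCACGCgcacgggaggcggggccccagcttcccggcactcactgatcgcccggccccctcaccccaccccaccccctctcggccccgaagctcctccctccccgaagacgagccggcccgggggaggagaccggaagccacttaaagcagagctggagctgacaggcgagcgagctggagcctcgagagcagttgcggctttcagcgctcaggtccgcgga
Cyp1a1, chr9:57697363-57697662, plus strand: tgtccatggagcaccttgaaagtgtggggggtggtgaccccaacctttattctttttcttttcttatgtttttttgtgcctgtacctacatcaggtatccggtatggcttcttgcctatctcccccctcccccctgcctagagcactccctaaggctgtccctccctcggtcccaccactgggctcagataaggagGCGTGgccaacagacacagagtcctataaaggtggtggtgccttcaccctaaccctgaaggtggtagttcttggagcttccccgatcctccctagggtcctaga
The Ahrr window held 3 matches, the Tiparp window 1 and the Cyp1a1 window 1. Of 32851 windows of this length 32.4% held at least 1 match and 3.91% at least 3, so a single match is common. RefSeq promoter windows were found for 5 of the 8 members; those of Afmid and Kmo held 0 matches, and of the 2 starts of Tph1 1 held 2 and the other 0. A match is a string of letters and not a binding site.

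Ahrr (chromosome 13, 74211118 to 74292331, minus strand) was barely expressed. It had 7, 2, 0 and 0 counts in DSS+CA 1 to 4, against 20, 5, 3 and 16 counts in DSS 1 to 4. In CPM, 3 of the 4 DSS+CA libraries lay below every DSS library, whereas DSS+CA 1 at 0.370 CPM lay between DSS 3 at 0.228 and DSS 2 at 0.381 CPM. Without a filter the log2 fold change was -2.22 (SE 1.02, edgeR adjusted p = 0.516), and it was -3.64 (adjusted p = 0.361) without DSS+CA 1.

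Tiparp (chromosome 3, 65528410 to 65555518, plus strand) had 19.97, 22.1, 51.9 and 24.9 CPM in DSS+CA 1 to 4, against 36.4, 71.3, 23.4 and 39.1 CPM in DSS 1 to 4. The 3 libraries of DSS+CA other than number 3 lay close together, and DSS+CA 3 exceeded 3 of the 4 DSS libraries. The fitted difference did not pass the test (log2 fold change -0.52, SE 0.414, edgeR adjusted p = 0.911). It was -0.93 without DSS+CA 3 (adjusted p = 0.310) and -0.15 without DSS 2 (adjusted p = 0.984). Without DSS 2, DSS 3 and DSS+CA 3 it was -0.79 (adjusted p = 0.0429), on 2 DSS and 3 DSS+CA libraries.

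**Figure D3:**
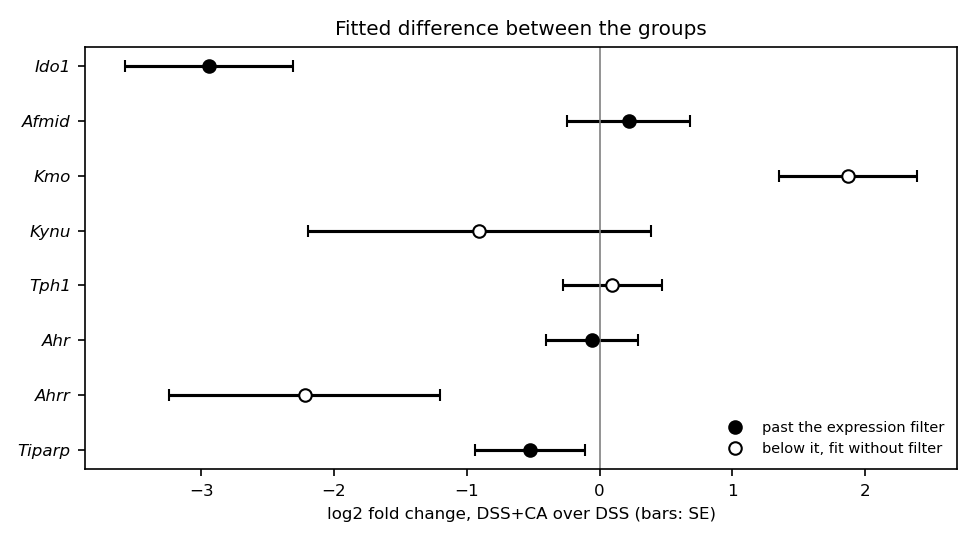
Fitted log2 fold change of each of the 8 genes, DSS+CA over DSS (x axis), with its SE as the bar; filled points are genes past the expression filter and open points come from the fit without a filter. Ido1 stands at -2.94 and Kmo at 1.87, and the bars of Afmid, Kynu, Tph1 and Ahr cross 0. The 95% interval of Tiparp, wider than its SE bar, runs from -1.33 to 0.29 and crosses 0 as well.

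Other receptor targets split. Of 11 listed, Ahrr and Tiparp included, 6 were tested, 0 were called by edgeR or DESeq2, 2 had an unadjusted p under 0.05, and the median log2 fold change was 0.13; Cyp1b1 and Il22 had no count in any library. Cyp1a1 had 28.5, 2.21, 1.64 and 0.109 CPM in DSS+CA 1 to 4, against 47.9, 34.0, 15.5 and 35.1 CPM in DSS 1 to 4. In 3 of the 4 DSS+CA libraries it was below every DSS library, and DSS+CA 1, also the highest of its group in Ahrr and Ahr, lay inside the DSS range (log2 fold change -2.02, SE 1.06, edgeR adjusted p = 0.730). Without DSS+CA 1 the value was -4.67 (adjusted p = 0.0581).

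Both of the other targets named here lay higher in DSS+CA, and neither passed the test over all 8 libraries. Nqo1, a quinone reductase that NRF2 controls as well, had 49.9, 60.4, 79.3 and 59.2 CPM in DSS+CA 1 to 4, against 26.5, 43.2, 45.6 and 32.6 CPM in DSS 1 to 4. Every DSS+CA library was above every DSS library, which 3.24% of tested genes showed (log2 fold change 0.75, SE 0.287, edgeR adjusted p = 0.479). Nqo1 passed in 2 of 16 alternatives, without DSS 2, DSS 3 and DSS+CA 3 (0.91, adjusted p = 0.0349) and with the counted gene length as a covariate (0.98, adjusted p = 0.0207), and the adjusted p reached 0.999 in the others. The glucuronosyltransferase gene Ugt1a6a averaged 30.8 ± 7.53 CPM in DSS+CA and 13.8 ± 5.94 CPM in DSS (SD, n = 4 each; log2 fold change 1.16, SE 0.363, edgeR adjusted p = 0.303). Genes of the Ugt1a cluster share exons, so its counts may include those of its neighbours.

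At the entry of tryptophan into cells, no transporter passed the edgeR test. Of 8 listed genes 7 were tested, 0 were called by edgeR and 1 by DESeq2, 1 had an unadjusted p under 0.05, and the median log2 fold change was 0.24. Slc6a19, the brush border carrier of neutral amino acids, averaged 822 ± 79.0 CPM in DSS+CA and 699 ± 135 CPM in DSS (SD, n = 4 each). Slc7a5, the exchanger LAT1, had 23.6, 23.4, 9.82 and 20.3 CPM in DSS+CA 1 to 4, against 7.99, 3.28, 8.22 and 6.93 CPM in DSS 1 to 4. All DSS+CA libraries were above all DSS libraries (log2 fold change 1.55, SE 0.390, edgeR adjusted p = 0.159; DESeq2 adjusted p = 0.0120), and without DSS+CA 3 the edgeR adjusted p was 0.0461 and without DSS 2, DSS 3 and DSS+CA 3 0.0137, within a range of 0.0120 to 0.508 over 16 alternatives. The tryptophanyl-tRNA synthetase gene Wars, an interferon gamma target in human cells, averaged 58.2 ± 23.9 CPM in DSS+CA and 38.9 ± 9.85 CPM in DSS (SD, n = 4 each), on the opposite side from Ido1 (log2 fold change 0.58, SE 0.350, edgeR adjusted p = 0.805).

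Beside Ido1, genes of the interferon gamma signal were mostly lower in DSS+CA. Of 13 listed, 10 were tested, with 8 below 0 and 2 above, and a median log2 fold change of -0.68 against 0.02 over all tested genes. At an unadjusted p under 0.05 there were 5, against 7.82% of all tested genes. EdgeR called 0, and DESeq2 called 2, against 2.22% of all tested genes. The guanylate-binding gene Gbp2 averaged 2.08 ± 0.858 CPM in DSS+CA and 7.47 ± 1.16 CPM in DSS, and Ciita, the regulator of MHC class II, 5.10 ± 2.38 CPM in DSS+CA and 20.7 ± 10.7 CPM in DSS (SD, n = 4 each; edgeR adjusted p = 0.088 and 0.129). The transcription factor gene Irf1 averaged 43.6 ± 11.7 CPM in DSS+CA and 91.3 ± 22.2 CPM in DSS (SD, n = 4 each; edgeR adjusted p = 0.241). Without DSS 2, DSS 3 and DSS+CA 3 all of these 3 genes passed, with a log2 fold change of -1.87 for Gbp2 (adjusted p = 0.043), -2.32 for Ciita (adjusted p = 0.00969) and -1.40 for Irf1 (adjusted p = 0.0221). That fit called 421 of all tested genes lower, against 9 with all 8 libraries. Over 16 alternatives the adjusted p ran from 0.000765 to 0.281 for Gbp2, from 0.0017 to 0.425 for Ciita and from 0.0221 to 0.715 for Irf1.

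The cytokine gene Ifng, below the filter and named after its values were seen, had 0 counts in every DSS+CA library, against 4, 6, 3 and 12 counts in DSS 1 to 4. Set against a floor of 3 counts over the whole DSS+CA group it was 8.67-fold lower there. That floor covers only the counting error of the 0 counts, and not the spread between libraries. The fit without a filter gave a log2 fold change of -5.63, with a 95% interval of -8.62 to -2.64 (edgeR adjusted p = 0.127). Without a filter 3.65% of genes lay lower in DSS+CA with no overlap. The receptor gene Ifngr1, also named after its values were seen, lay on the other side, at 133 ± 9.19 CPM in DSS+CA and 94.2 ± 15.6 CPM in DSS (SD, n = 4 each; edgeR adjusted p = 0.707).

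T and NK cell markers were lower in DSS+CA, as Ido1 was, but not all of them followed it from library to library. The 14 markers summed to 112, 271, 1123 and 263 CPM in DSS+CA 1 to 4, against 563, 2022, 1974 and 1156 CPM in DSS 1 to 4, with none at 0. Of the 11 tested, all 11 were below 0 (median log2 fold change -1.90). An unadjusted p under 0.05 was found for 9 (7.82% of all tested genes), and DESeq2 called 9 (2.22% of all). Groups without overlap, DSS+CA lower, were found for 7 (2.81% of all). By edgeR 1 was called (0.131% of all), the integrin gene Itgae (10.8 ± 2.42 CPM in DSS+CA and 40.1 ± 8.89 CPM in DSS, SD, n = 4 each, adjusted p = 0.038). In DSS+CA both Ido1 and the marker sum were highest in library 3 and lowest in library 1; in DSS both were highest in library 2, but the lowest Ido1 was in library 4 and the lowest sum in library 1. The sum was led by the granzyme gene Gzma, with 47.5, 163, 853 and 150 CPM in DSS+CA 1 to 4, against 262, 1288, 1361 and 706 CPM in DSS 1 to 4. The sum was higher in DSS+CA 3 than in DSS 1, whereas 9 of the 14 single markers were lower there, as Ido1 was. Itgae was lowest in DSS+CA 3 (8.18 CPM) and DSS 2 (32.0 CPM), where Ido1 was highest. Both libraries also had a short mean counted gene length (1445 and 1423 bases), and the part of that length in this order was not tested. Among the other DSS+CA libraries Itgae, like Ido1, was lowest in library 1 (9.24 CPM). Among the other DSS libraries Itgae was lowest in library 3 (33.8 CPM) and Ido1 in library 4.

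Markers of macrophages and dendritic cells, which can also hold Ido1, had little RNA here. That does not give the number of such cells. The 12 macrophage and dendritic cell markers summed to 17.5 to 31.9 CPM in DSS+CA and 27.0 to 35.6 CPM in DSS; 2 were tested, 1 on each side of 0, and Fcgr1 was at 0. The integrin gene Itgax of this list, named after its values were seen, averaged 1.101 ± 0.209 CPM in DSS+CA and 4.34 ± 1.99 CPM in DSS (SD, n = 4 each, edgeR adjusted p = 0.0825 without a filter). In the same list Cd14 (log2 fold change 0.29) and, without a filter, Mrc1 (0.82) and Itgam (0.25) lay higher in DSS+CA. The other tested gene, Lyz2, lay lower (-1.60, edgeR unadjusted p = 0.0259, adjusted p = 0.497). An unadjusted p under 0.05 was found for 7.82% of all tested genes. Without a filter Csf1r (-1.72, with 15 counts in DSS+CA and 49 in DSS) and Adgre1 (-2.79, with 2 and 16 counts) also lay lower. Flt3 had 9 counts in DSS+CA and 11 in DSS, and Xcr1 of cross-presenting dendritic cells 0 and 2. In bulk crypts, fewer cells of a type and less RNA per cell cannot be told apart. B and plasma cell markers were also lower in DSS+CA, with sums of 13.8 to 28.2 CPM in DSS+CA and 54.2 to 82.3 CPM in DSS over 9 markers, none at 0. Of these 4 were tested, all below 0, with 0 called by edgeR. DESeq2 called 2 (2.22% of all tested genes), and 3 had an unadjusted p under 0.05 (7.82% of all). The 9 stromal and endothelial markers summed to 5.07 to 7.85 CPM in DSS+CA and 8.06 to 15.9 CPM in DSS, and the 10 epithelial markers to 11280 to 11990 CPM in DSS+CA and 11010 to 12840 CPM in DSS. The part of T cells, B cells, dendritic cells, stromal cells or the interferon genes in the Ido1 level was not tested.

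**Figure D4:**
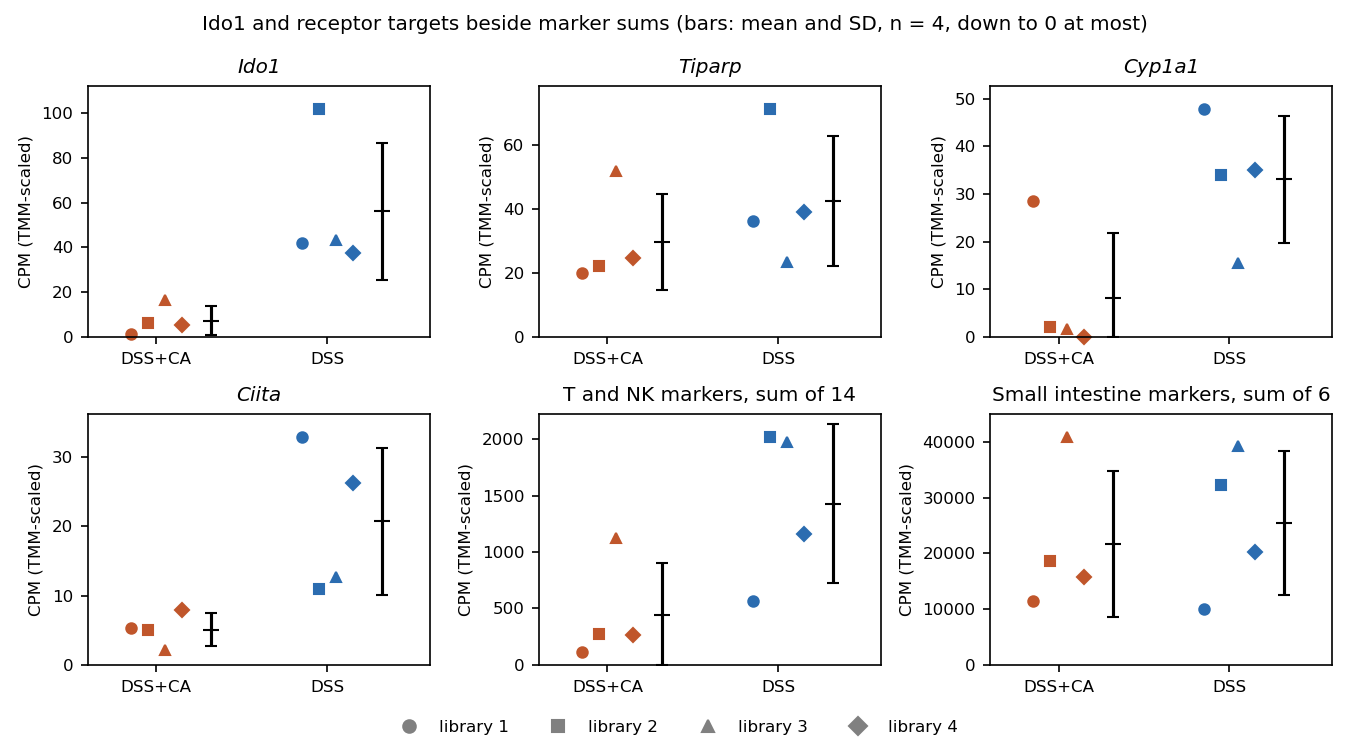
TMM-scaled CPM (y axis, linear from 0) of Ido1, Tiparp, Cyp1a1 and Ciita and the summed CPM of the T and NK cell and small intestine markers, 1 point a library, DSS+CA left of DSS, with mean and SD (bars end at 0 where they would pass it). DSS+CA 3 is the highest of its group for Ido1, Tiparp and both marker sums, whereas DSS+CA 1 is the highest for Cyp1a1.

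Per unit of gene length, the order of the 8 genes differed between the groups at its top. In DSS+CA the median FPKM was 5.14 for Tiparp, 3.62 for Ido1, 1.88 for Ahr, 1.40 for Afmid, 1.06 for Tph1, 0.692 for Kmo, 0.0106 for Kynu and 0.00652 for Ahrr. In DSS it was 24.3 for Ido1, 7.89 for Tiparp, 1.62 for Ahr, 0.915 for Tph1, 0.895 for Afmid, 0.161 for Kmo, 0.0529 for Ahrr and 0.0200 for Kynu. In DSS the ranges of Ido1 and Tiparp, of Tiparp and Ahr, and of Afmid and Kmo did not overlap, while in DSS+CA the only neighbours whose ranges parted were Kmo and Kynu. The top place of Tiparp over Ido1 in DSS+CA thus lay within the spread.

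The genes most like each tested member over the 8 libraries were found by the root mean square difference of log2 CPM after centring each gene on its own mean. For Ido1 these were the interferon-induced GTPase gene Tgtp2 (0.319) and the lymphocyte surface genes Cd48 (0.486) and Cd160 (0.624), against a median of 1.94 over all tested genes. For Ahr they were Specc1 (0.160), Srbd1 (0.164) and Hinfp (0.174), for Tiparp Oxr1 (0.0956), Pls1 (0.118) and Arl13b (0.119), and for Afmid Slc25a42 (0.212), Unk (0.240) and Ddx51 (0.244). Tgtp2 has a near copy, Tgtp1, so its counts are uncertain. Likeness here also reflects the library composition that all genes share.

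In the deposited annotation 47 genes carry the KEGG term for tryptophan metabolism, and the 5 enzymes among the members are all in it. Of the 47, 23 were tested, 15 above 0 and 8 below, with a median log2 fold change of 0.14; 0 were called by edgeR and 1, Ido1, by DESeq2, and 3 had an unadjusted p under 0.05. Ido1 had the smallest adjusted p of the 23. This set was added after the files were seen.

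**Figure D5:**
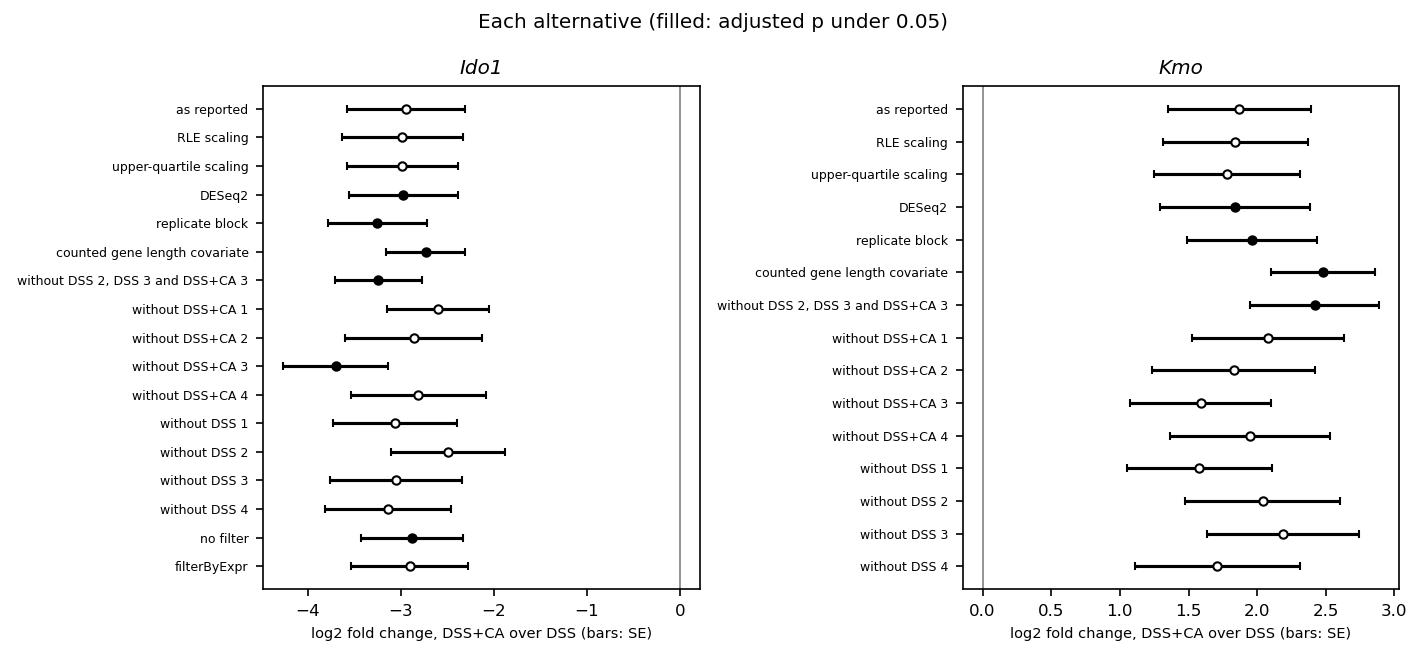
Log2 fold change with SE (x axis) of Ido1 and Kmo, DSS+CA over DSS, as reported and under each alternative; filled points have an adjusted p under 0.05. Ido1 stays between -3.70 and -2.49 and Kmo between 1.58 and 2.48, with 6 of 16 and 4 of 14 alternatives filled.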

How the data were processed

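RNA of 8 crypt libraries (DSS+CA and DSS, 4 each) was profiled. Per the labels' protocols, 200 ng of total RNA per library went into a stranded total RNA kit. Per the file headers, each deposited table has 1 column of raw counts and 1 of FPKM. HISAT2, StringTie, GRCm38 and mm10 appear in the submitters' processing notes; no source used here names the counting tool or its strand setting. The deposited FPKM equalled the count over a fixed gene length and the library total, within 1% for 17718 of 17718 genes counted in 2 or more libraries.

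Genes with at least 1 FPKM in at least 4 libraries (9913) were tested on counts with edgeR 4.0.16 (quasi-likelihood, TMM, two-sided, Benjamini-Hochberg over all tested genes, threshold 0.05; R 4.3.3). The SE is the absolute log2 fold change over the square root of F. Members below the filter come from a fit of all 19457 genes with a count. DESeq2 1.42.0, other scalings and filters, a replicate block, a library covariate and left-out libraries were alternatives. The test was run on simulated data first. The members and lists (149 entries, all matched, 2 by older symbols) were chosen with earlier results of these data known. Named genes were all members, 12 fixed genes, and per list up to 4 past the threshold or else the 3 with the smallest p, not all printed, plus 3 like genes per tested member; Vil1, Sis, Nadsyn1 and other genes outside this rule were named after their values were seen.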

Additional observations from a re-analysis of the deposited data

Results flagged for a closer look

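Within groups of 4 libraries, a library was marked where its gap to the nearest other was too large a share of the group's range by Dixon's test at 95%. Of 54 groups looked at, 6 were marked, and chance marks about 1 in 20. Ido1 was at 102 CPM in DSS 2, against 37.5 to 43.3 CPM in the other DSS libraries. Tiparp was at 51.9 CPM in DSS+CA 3, against 19.97 to 24.9 CPM in the other DSS+CA libraries. Cyp1a1 was at 28.5 CPM in DSS+CA 1, against 0.109 to 2.21 CPM in the other DSS+CA libraries. DSS+CA 3 also had the highest sum of T and NK cell markers of its group, at 1123 CPM against 112 to 271 CPM, and the highest sum of neutrophil markers, at 1.02 CPM against 0 to 0.109 CPM. It had the lowest sum of colon markers, at 2.97 CPM against 8.29 to 8.98 CPM in the other DSS+CA libraries.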

How the results depend on the processing

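Among all genes, 4 were higher and 9 lower in DSS+CA, with 7 and 20 under RLE scaling, 51 and 169 with DESeq2, 14 and 51 with the replicate block, 294 and 324 with the counted gene length as a covariate, 234 and 421 without DSS 2, DSS 3 and DSS+CA 3, and 18 and 61 with no filter. Leaving out 1 library gave 0 to 19 higher and 4 to 65 lower. Of the members past the filter 0 were called, against 1 with DESeq2, 1 with the replicate block, 1 with the covariate, 1 with no filter and 2 without the 3 libraries; leaving out 1 library gave 0 to 1. Of the listed pathway genes 0 were called, against 1 higher and 3 lower with DESeq2, 0 and 2 with the replicate block, 1 and 5 with the covariate, 2 and 5 without the 3 libraries and 0 and 1 with no filter; leaving out 1 library gave 0 to 1 in either direction. Nothing in the labels pairs same-numbered libraries, so they were not treated as pairs. The correlation of their deviations from the group means was 0.752, -0.344, 0.105 and 0.197 for numbers 1 to 4, over 0.1 in 3 of 4 pairs. By that correlation the best match of DSS+CA 1 to 4 was DSS 1, 1, 2 and 1. With the replicate block Ido1 was at -3.25 (adjusted p = 0.027) and Kmo kept its direction (adjusted p = 0.00313), and Arnt2 (adjusted p = 0.00855) and Ciita (adjusted p = 0.0348) also passed. The sign of Afmid turned with the covariate (-0.21) and without DSS+CA 4 (-0.0572), its range over single left-out libraries being -0.0572 to 0.487. That of Ahr turned without DSS+CA 3 (0.0758), without DSS+CA 4 (0.0341), without DSS 1 (0.143) and with no filter (0.0184), with a range of -0.321 to 0.143 over single left-out libraries. Ido1, Kmo, Ahrr, Tiparp, Tph1 and Kynu kept their sign under every alternative run. No scaling moved the median of all genes by more than 0.1 on the log2 scale, and the cause of the other shifts was not tested. With 4 libraries a group and counts of 0 to 20 in Ahrr and 0 to 8 in Kynu, depth limits these 2 genes.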
